A study of Mus musculus with 2 samples.

Results

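The promoters described here belong to nuclear genes for complexes II to V of the mitochondrial respiratory chain. The members are the protein-coding genes of the mouse GENCODE annotation (build mm10, GRCm38) named Sdha, Sdhb, Sdhc, Sdhd or Cyc1, or with symbols that begin Uqcr, Cox4 to Cox8 or Atp5. There were 49 such gene records with 48 symbols, of 21938 protein-coding genes in all. A member was measured where an ATAC peak of each library lay within 500 bp of a transcription start site, which held for 44 of the 49 records and for 15877 of all genes. Complex II had 4 of 4 genes measured, complex III 9 of 9, complex IV 14 of 18 and complex V 17 of 18.

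Single-cell ATAC-seq counts where the transposase Tn5 cuts accessible DNA in each nucleus. The cells were taken from dorsal skin of E16.5 mice, with 1 library labelled Control and 1 labelled MOFfl/fl/K14Cre, called MOF cKO below. Both carried a K14-H2BGFP reporter of epithelial cells. According to the labels, 5 parts of GFP-positive cells were pooled with 1 part of GFP-negative cells after sorting. The text of the study gives other ratios, so shares of cell classes are not compared here. The exact alleles of the Control are not given in the labels. MOF (gene Kat8) is a histone acetyltransferase that acts on lysine 16 of histone H4. Its floxed gene was the target of a Cre recombinase expressed from the Krt14 promoter, which is active in epithelial cells. How complete the deletion was in these cells was not measured here. The fibroblasts and other non-epithelial cells of the MOF cKO library are thus not the cells that Cre was designed to act in. With 1 library per genotype no difference was tested, and every interval is a 95% interval that covers counting error only. Differences between embryos, sorts and library preparations cannot be told apart from differences between genotypes.

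Complex II is succinate dehydrogenase, which feeds electrons from the citric acid cycle to ubiquinone. Complex III passes them to cytochrome c, complex IV passes them to oxygen, and complex V is the ATP synthase that uses the proton gradient so formed. Complex II is made from nuclear genes alone, whereas complexes III, IV and V also hold proteins made from mitochondrial DNA. Several complex IV genes exist as a widely used and a tissue-restricted isoform.

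The Control library held 2541 barcodes and 169641002 cut sites, and the MOF cKO library 4348 barcodes and 324310197 cut sites. The libraries shared 21 barcodes. Clusters were named from the accessibility of marker promoters. The epithelial-like class held 1245 Control and 2596 MOF cKO cells, with 8 to 10 of 10 epithelial markers high in each cluster, and the fibroblast-like class held 660 and 1261 cells. The epithelial-like cells of the 2 libraries fell almost entirely into separate clusters, 2, 9, 11 and 18 for Control and 0, 1, 3 and 15 for MOF cKO, and the wound keratin gene Krt16 was among the leading genes of each of the last 4. Cluster 15 was shallow, with a median of 17167 sites per cell in shared regions against 67771 to 91174 in clusters 0, 1 and 3. At the promoter of Kat8 itself the epithelial-like level was 53.0 CPM per kb in Control and 39.1 in MOF cKO. A promoter outside the deleted stretch is no check of the deletion.

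The sequences of 6 member promoters are shown here because 3 were examples in the study, 1 had the lowest epithelial change, and 2 form a pair of a restricted and a wide isoform. They are RefSeq sequences of build GRCm38.p6, 5′ to 3′ on the strand of the gene, from 250 bases before the start site to 30 after it. Capitals mark each match, on either strand, to the motifs of NRF1 (GCGCANGCG), ETS factors (CCGGAAG), YY1 (AAGATGGCG) and SP1 (GGGCGG), and to CCAAT and TATAAA. NRF1 and ETS factors such as GABPA are known as activators of respiratory chain genes. A match is a description of the letters, not a measured binding site.

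Sdha (chr13:74350211-74350490, minus strand), Sdhb (chr4:140961021-140961300, plus strand) and Uqcrc1 (chr9:108936398-108936677, plus strand) were the study examples with an entry in the sequence table. The study displayed the promoters of Sdha and Uqcrc1 as less open in MOF cKO epithelial cells. It named Sdhb for lower RNA in suprabasal cells.
Sdha: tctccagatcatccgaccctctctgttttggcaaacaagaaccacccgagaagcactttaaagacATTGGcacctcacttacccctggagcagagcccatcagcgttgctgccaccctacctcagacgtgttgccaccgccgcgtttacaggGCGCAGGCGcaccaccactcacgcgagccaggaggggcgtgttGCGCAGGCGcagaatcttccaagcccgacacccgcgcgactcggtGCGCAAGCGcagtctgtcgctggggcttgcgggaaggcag
Sdhb: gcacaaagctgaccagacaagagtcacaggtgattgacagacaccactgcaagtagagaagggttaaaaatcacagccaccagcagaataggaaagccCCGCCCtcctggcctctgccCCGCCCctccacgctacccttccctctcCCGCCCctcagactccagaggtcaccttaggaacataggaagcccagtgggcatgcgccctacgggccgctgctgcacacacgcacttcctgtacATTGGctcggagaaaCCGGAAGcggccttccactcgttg
Uqcrc1: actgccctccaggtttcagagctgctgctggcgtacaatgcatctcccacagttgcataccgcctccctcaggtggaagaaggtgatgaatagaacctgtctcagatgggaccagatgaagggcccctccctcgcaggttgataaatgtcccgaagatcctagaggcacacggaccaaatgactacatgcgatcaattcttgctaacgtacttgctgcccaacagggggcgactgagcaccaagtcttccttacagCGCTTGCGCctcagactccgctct
Sdha held 3 separate NRF1 matches before the start, at -98, -55 and -10. Sdhb held none, and had 3 SP1 matches and an ETS match instead. Uqcrc1 had an NRF1 match at 7 bases after the start, and a further overlapping pair of matches from 31 that lies past the printed stretch.

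Atp5l (chr9:44920713-44920992, minus strand) had the lowest epithelial change of all members, and Cox7a1 (chr7:30183921-30184200, plus strand) and Cox7a2 (chr9:79759824-79760103, minus strand) encode the heart and muscle form and the widely used form of the same complex IV subunit.
Atp5l: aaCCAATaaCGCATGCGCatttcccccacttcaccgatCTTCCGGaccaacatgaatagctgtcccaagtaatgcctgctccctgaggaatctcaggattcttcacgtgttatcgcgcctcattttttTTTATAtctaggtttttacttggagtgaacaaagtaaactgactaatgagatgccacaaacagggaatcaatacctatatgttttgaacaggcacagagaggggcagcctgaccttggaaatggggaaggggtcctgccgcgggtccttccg
Cox7a1: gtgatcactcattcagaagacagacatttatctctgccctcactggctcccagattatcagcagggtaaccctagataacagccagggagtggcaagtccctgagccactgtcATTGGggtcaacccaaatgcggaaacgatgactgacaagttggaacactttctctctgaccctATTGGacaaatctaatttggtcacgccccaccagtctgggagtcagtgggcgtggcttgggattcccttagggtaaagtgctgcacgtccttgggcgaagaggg
Cox7a2: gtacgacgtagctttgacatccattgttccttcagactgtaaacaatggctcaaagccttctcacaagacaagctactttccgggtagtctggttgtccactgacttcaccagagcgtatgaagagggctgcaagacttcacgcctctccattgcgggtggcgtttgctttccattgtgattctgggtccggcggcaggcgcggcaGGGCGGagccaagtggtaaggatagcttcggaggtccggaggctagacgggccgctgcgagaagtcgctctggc
The NRF1, CCAAT and TATAAA matches of Atp5l all lay 122 bases or more before the start. An ETS match lay at -212, and another at 25 bases after the start lies past the printed stretch. Cox7a1 held 2 CCAAT matches and no match to NRF1, ETS or SP1. Cox7a2 held a single SP1 match.

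A sequence was found for 32 of the 44 measured members, and Uqcrq, Cox4i1 and Cox4i2 were not among them. NRF1 matches occurred in 11 of the 32 (34.4%), against 12.1% of 12266 measured promoters of all genes with a sequence. ETS matches also occurred in 11 (34.4% against 15.6%), CCAAT in 18 (56.2% against 37.9%), SP1 in 11 (34.4% against 61.5%), and YY1 and TATAAA in 1 each (3.12% against 2.67% and 7.87%). The ETS and YY1 motifs can overlap by 3 letters. By complex, NRF1 matches were present in 2 of 3 sequences of complex II, 2 of 5 of complex III, 1 of 11 of complex IV and 6 of 13 of complex V. Median GC content was 56.2% in the members and 60.3% over all promoters, and the median ratio of observed to expected CpG was 0.833 and 0.729.

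Member promoters were among the more accessible promoters of epithelial-like cells. Levels are given as CPM per kb, that is cut sites of a class scaled to its total in regions with a peak in both libraries (shared regions), and divided by the length of the promoter region. The 44 members had a median Control level of 33.8 CPM per kb against 20.6 over all promoters, at the 72.4th percentile. Their regions were 793 to 1755 bp long. Uqcrq, which encodes the ubiquinone-binding protein QP-C of complex III, had the highest level at 96.8 CPM per kb in Control and 65.9 in MOF cKO. It was followed by Atp5g1, for the c subunit of the ATP synthase rotor, at 74.8 and 51.5, and Atp5b, for the catalytic beta subunit, at 59.8 and 44.3. At the low end stood Cox4i2, a tissue-restricted isoform of complex IV, at 3.49 and 4.14. Over the members the Control levels of the epithelial-like and fibroblast-like classes ran in nearly the same order (Spearman's rho = 0.87 across 44 genes, which share each library). The epithelial change and the Control level were only loosely related (rho = -0.12).

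**Figure D1:**
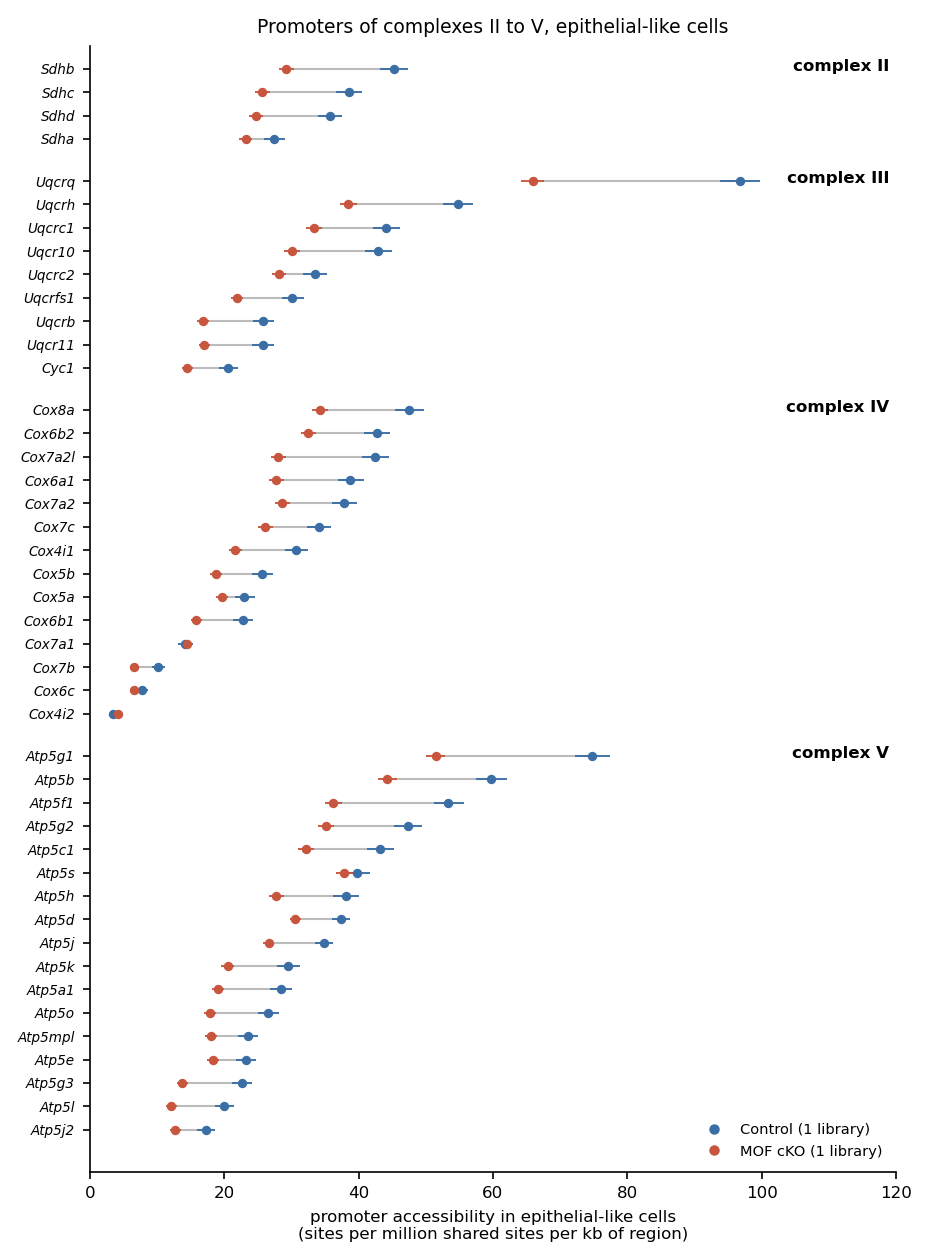
Epithelial-like promoter level of the 44 measured members, in CPM per kb of promoter region, with exact Poisson 95% intervals, in 1 Control and 1 MOF cKO library and grouped by complex. The MOF cKO point lies left of the Control point for 42 members, with Cox4i2 (3.49 and 4.14) and Cox7a1 (14.2 and 14.5) the exceptions.

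The first comparison asked how accessible these promoters were in MOF cKO relative to Control epithelial-like cells, and whether the complexes differed. Of the 44 members 42 were lower in MOF cKO by some amount (95.5%, against 84.3% of all promoters). The median log2(MOF cKO / Control) of CPM was -0.47, with quartiles of -0.55 and -0.39, while all 15877 promoters had a median of -0.41 with quartiles of -0.54 and -0.19. So the members shared the drop of the whole promoter class and lay 0.06 below its median. Set against promoters of like Control accessibility, their gap was -0.03. Only 7 members (15.9%) were 1.5-fold or more lower, against 18.5% of all promoters, and 0 were 1.5-fold or more higher, against 5.03%. No member was 2-fold lower or higher, against 2.37% and 2.49% of all promoters. The quartiles of the members lay closer together than those of all promoters. Promoters whose region serves other genes had a similar median Control level (34.0 CPM per kb, over 2594 promoters). Of these 96.1% were lower, with quartiles of -0.54 and -0.35, so such evenness was not particular to the members. The count of 1.5-fold lower members ranged from 2 to 36 with other totals for the libraries, and its share lay below or above that of all promoters, as given further on.

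Ordered by complex, the median change was -0.56 for complex II, -0.51 for complex III, -0.43 for complex IV and -0.44 for complex V. Relative to all promoters these are -0.15, -0.10, -0.02 and -0.03. Members below the median of all promoters numbered 3 of 4, 7 of 9, 7 of 14 and 12 of 17. Summed over its promoters, complex II fell from 0.0132% to 0.00927% of the sites in shared regions, a log2 change of -0.51 (-0.56 to -0.46). The sums of complex III gave -0.49 (-0.52 to -0.46), of complex IV -0.42 (-0.44 to -0.39) and of complex V -0.44 (-0.46 to -0.41). The counting intervals of complexes II and III lay below those of complexes IV and V, by less than 0.01 in the case of complex V. Without the restricted isoforms complex IV stood at -0.46 (-0.49 to -0.43), and without Atp5s complex V stood at -0.46 (-0.48 to -0.44). Both then overlapped the intervals of complexes II and III. The genes left out all lay above the summed change of their complex, so leaving them out could only lower it. Cox7a2l, a supercomplex factor with a change of -0.60, was kept. Set against promoters of like Control accessibility, the medians were -0.12, -0.06, -0.02 and -0.02. The order of the complexes depended on the counting. With cells thinned to 5000 sites the medians relative to all promoters were -0.16, -0.17, -0.08 and -0.06, and with each cell and region counted once they were -0.05, -0.02, -0.03 and -0.03.

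**Figure D2:**
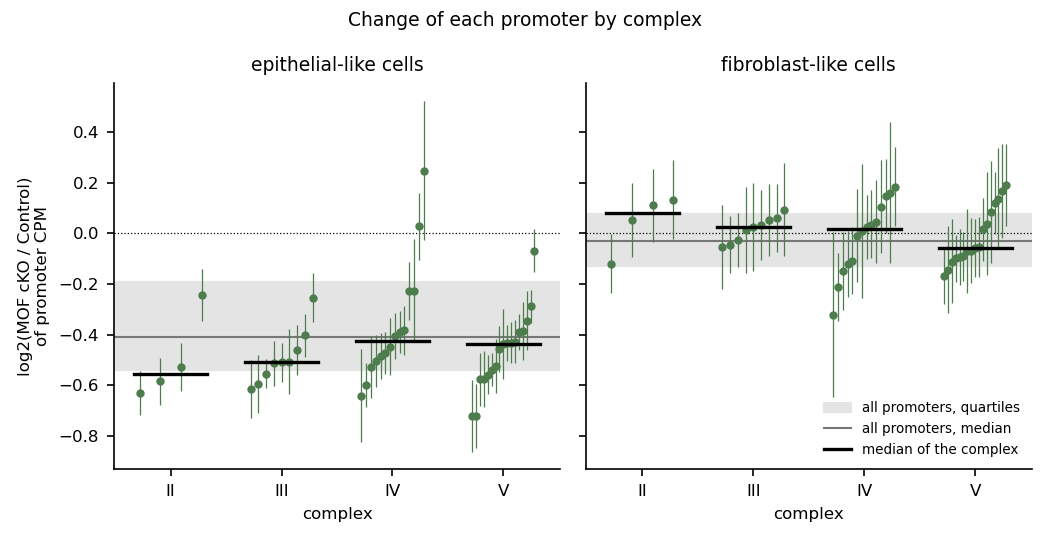
Change of each member promoter as log2(MOF cKO / Control) of CPM, with exact 95% counting intervals, by complex in epithelial-like (left) and fibroblast-like (right) cells. Black bars are complex medians, and the grey line and band give the median and quartiles of all promoters. In epithelial-like cells the complex medians run from -0.56 to -0.43 beside -0.41 for all promoters, and in fibroblast-like cells from -0.06 to 0.08 beside -0.03.

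Complex II comprises the flavoprotein Sdha, the iron-sulfur protein Sdhb and the membrane anchors Sdhc and Sdhd. Sdhb fell the most, from 45.3 CPM per kb (43.2 to 47.4) in Control to 29.2 (28.1 to 30.4) in MOF cKO, a log2 change of -0.63 (-0.72 to -0.54). Sdhc went from 38.5 to 25.7 CPM per kb (-0.58, -0.68 to -0.49) and Sdhd from 35.7 to 24.7 (-0.53, -0.62 to -0.43). Sdha changed the least. Its level was 27.5 CPM per kb (25.9 to 29.1) in Control and 23.2 (22.3 to 24.2) in MOF cKO, a log2 change of -0.24 (-0.35 to -0.14), which lay above the median of all promoters. The counting interval of the change lay below 0 for each of the 4. The same held for 41 of all 44 members, for 76% of all promoters and for 2399 of 2594 promoters whose region serves other genes. The interval lay above 0 for 0 members and for 9.85% of all promoters. Sdhb alone had a promoter region that served no other protein-coding gene. The regions of Sdha and Sdhd also cover start sites of Ccdc127 and Timm8b, and a site there cannot be assigned to one gene of the pair.

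In complex III all 9 members were lower. The lowest were Uqcrb, the ubiquinol-cytochrome c reductase binding protein, from 25.8 to 16.9 CPM per kb (-0.61, -0.73 to -0.50), and Uqcr11, another small subunit, from 25.7 to 17.1 (-0.59, -0.71 to -0.48). Uqcrq, the member with the highest level, changed by -0.55 (-0.61 to -0.50). The core subunits, which face the mitochondrial matrix, had the smallest changes. Uqcrc1 went from 44.1 to 33.4 CPM per kb (-0.40, -0.49 to -0.32), at the median of all promoters, and Uqcrc2 from 33.5 to 28.1 (-0.25, -0.35 to -0.16). The other members, Cyc1 (cytochrome c1), Uqcr10, Uqcrfs1 (the Rieske iron-sulfur protein) and Uqcrh (the hinge protein), lay between -0.51 and -0.46.

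Complex IV had the widest range. Cox7b, a small subunit gene on the X chromosome, went from 10.2 to 6.51 CPM per kb (-0.64, -0.82 to -0.46). Cox7a2l, which joins complexes III and IV into supercomplexes, went from 42.5 to 28 (-0.60, -0.69 to -0.51). Cox6b1 followed with 22.8 and 15.8 (-0.53, -0.65 to -0.41). These were the 3 lowest. At the other end stood 2 tissue-restricted isoforms, Cox4i2 at 0.25 (-0.03 to 0.53) and Cox7a1 at 0.03 (-0.10 to 0.16), whose intervals both include 0. Both lay above the upper quartile of all promoters. Another measured restricted isoform, Cox6b2, was lower at -0.39 (-0.47 to -0.31), so the restricted isoforms did not behave alike. Cox6c and Cox5a, which are not restricted isoforms, changed less than Cox6b2, both at -0.23. Without the restricted isoforms, all 11 remaining members were lower, with a median of -0.47.

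Complex V, the ATP synthase, had the 2 lowest members of all. Atp5l, for subunit g of the membrane part, went from 20.02 to 12.1 CPM per kb (-0.72, -0.86 to -0.58). Atp5g3 went from 22.7 to 13.7 (-0.72, -0.85 to -0.59). It is 1 of 3 genes that encode the same mature c subunit. Its companions Atp5g1 and Atp5g2 changed by -0.54 (-0.60 to -0.47) and -0.43 (-0.51 to -0.35), so the promoter with the lowest Control level of the 3 had the lowest change. Its counting interval lay below that of Atp5g2 and met that of Atp5g1 at the edge. Atp5a1, for the alpha subunit of the F1 part, had a change of -0.58 (-0.68 to -0.47). The least changed were Atp5d, for the delta subunit of the central stalk, at -0.29 (-0.35 to -0.22), and Atp5s at -0.07 (-0.15 to 0.02). Atp5s carries the prefix but is not a subunit of the enzyme. Leaving it out moved the median of complex V from -0.44 to -0.45.

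For 14 of the 44 members the promoter region also covered the start site of another protein-coding gene. These had a median epithelial change of -0.51, and the 30 with a region of their own had -0.45. All promoters gave -0.45 and -0.40 in the same split. Gabpa, which encodes the DNA-binding subunit of an ETS factor, shares its promoter with Atp5j (-0.39, -0.46 to -0.32).

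The same genes were then compared in fibroblast-like cells. Of 44 members 20 were lower (45.5%, against 58.2% of all promoters), 0 were 1.5-fold or more lower (against 2.49%) and 0 were 1.5-fold or more higher (against 4.5%). The median change was 0.02, beside -0.03 over 15763 promoters. By complex it was 0.08, 0.03, 0.02 and -0.06. The signs of complexes II and V depended on the counting. Complex V was at 0.07 with each cell and region counted once. Complex II was at -0.12 with regions serving 1 gene, where Sdhb alone remains. Sdhb was at 58.5 and 53.8 CPM per kb (-0.12, -0.24 to -0.0023), with an interval just below 0. Sdha was at 32.7 and 33.9 (0.05, -0.09 to 0.20), Uqcrc1 at 26.8 and 27.0 (0.01, -0.15 to 0.18) and Atp5l at 32.0 and 29.6 (-0.11, -0.28 to 0.06). The counting interval lay below 0 for 4 members (against 17.8% of all promoters) and above 0 for 3 (against 10.3%). Across members, the change in the 2 classes was only weakly related (rho = 0.19 across 44 genes, from the same libraries).

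Further genes of the pathway were set beside the epithelial-like background, in which 84.3% of all promoters were lower and 18.5% lower by 1.5-fold or more. All 38 complex I subunit genes were lower, 8 of them (21.1%) by 1.5-fold or more, with a median of -0.51 beside -0.41 for all promoters. Of 32 measured assembly factor genes 31 were lower and 6 (18.8%) by 1.5-fold or more, with a median of -0.47. Both shares of 1.5-fold lower genes were near that of all promoters. Cycs, for cytochrome c, had a change of -0.33. In fibroblast-like cells the medians were 0.00 for complex I and 0.01 for the assembly factors, and Cycs was at 0.05.

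The members were next followed through clusters of at least 50 cells of 1 library. Clusters of a library are not replicates, and the clustering itself used accessible regions. The members took 0.139% to 0.157% of the sites in shared regions in the 4 Control epithelial-like clusters. In MOF cKO clusters 0, 1 and 3 they took 0.0999%, 0.108% and 0.107%, all below the Control range. In the shallow cluster 15 they took 0.147%, inside it. Promoters as a whole did the same, with 39.1% of sites in cluster 15, 28.04% to 29.1% in clusters 0, 1 and 3 and 36.6% to 39.3% in the Control clusters. The Control clusters compared hold no shallow one. A Control cluster of 325 cells with 9 of 10 epithelial markers and a median of 2496 sites per cell in shared regions was not named, and there the members took 0.165% of sites, with 42.1% in promoters. The part of depth in these shares was not tested. For 21 of 44 members (47.7%, against 22.7% of all promoters) every MOF cKO cluster lay below every Control cluster, and for 0 (against 2.1%) every one lay above. The 21 were 3 of 4 genes of complex II, 7 of 9 of complex III, 6 of 14 of complex IV and 5 of 17 of complex V. Without cluster 15, a comparison added after seeing the data, the count was 38 of 44 (86.4%, against 56.5% of all promoters). The members not below in that setting were Uqcrc1 of complex III, Cox4i2, Cox6c and Cox7a1 of complex IV, and Atp5j2 and Atp5s of complex V. All genes of complex II were below, so the split by complex given above depended on the shallow cluster 15. A promoter with many sites has a smaller counting error in each cluster. The part of this in the shares of members and of all promoters was not tested.

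Cluster 15 was above clusters 0, 1 and 3 at 31 of the 44 members (70.5%, against 60.8% of all promoters). It was above the Control range at 13 (29.5% against 28.5%) and below it at 23 (52.3% against 35.2%). These genes were ranked after their values were seen, by the ratio of cluster 15 to the highest of the other MOF cKO clusters. The highest ratio was that of Atp5e, for the epsilon subunit of the ATP synthase, at 45.5 CPM per kb (34.3 to 59.2, from 110 sites) against at most 17.99 in clusters 0, 1 and 3 and 20.3 to 27.6 in Control. The c-subunit genes Atp5g2 and Atp5g1 followed. Atp5g2 had 73.0 CPM per kb (58.8 to 89.5) against a Control range of 40.7 to 58.1, and Atp5g1 had 109 (92.0 to 129) against 63.9 to 89.2. The lowest ratios were those of Cox7a1 and Cox7c, a small complex IV subunit. Cox7c had 12.7 CPM per kb (7.12 to 21.0, from 30 sites) in cluster 15 against 25.3 to 27.7 in clusters 0, 1 and 3. Of complex II, Sdhb reached the Control range in cluster 15 at 45.3 CPM per kb (34.1 to 59.1), whereas Sdha, Sdhc and Sdhd stood at 21.3, 30.4 and 30.4, below the lowest Control values of 26.3, 35.6 and 33.2. The counting intervals of these 3 values in cluster 15 reached 30.8, 42.0 and 41.7, so they include the lowest Control value.

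A second denominator was the sites in promoter regions alone. Epithelial-like cells had 37.6% of their sites in promoter regions in Control and 28.6% in MOF cKO. The members took 0.380% of those promoter sites in Control and 0.366% in MOF cKO. Over clusters the share of promoter sites was 0.355% to 0.411% in Control and 0.356% to 0.379% in MOF cKO, ranges that overlap. The same share in fibroblast-like cells was 0.356% and 0.360%.

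**Figure D3:**
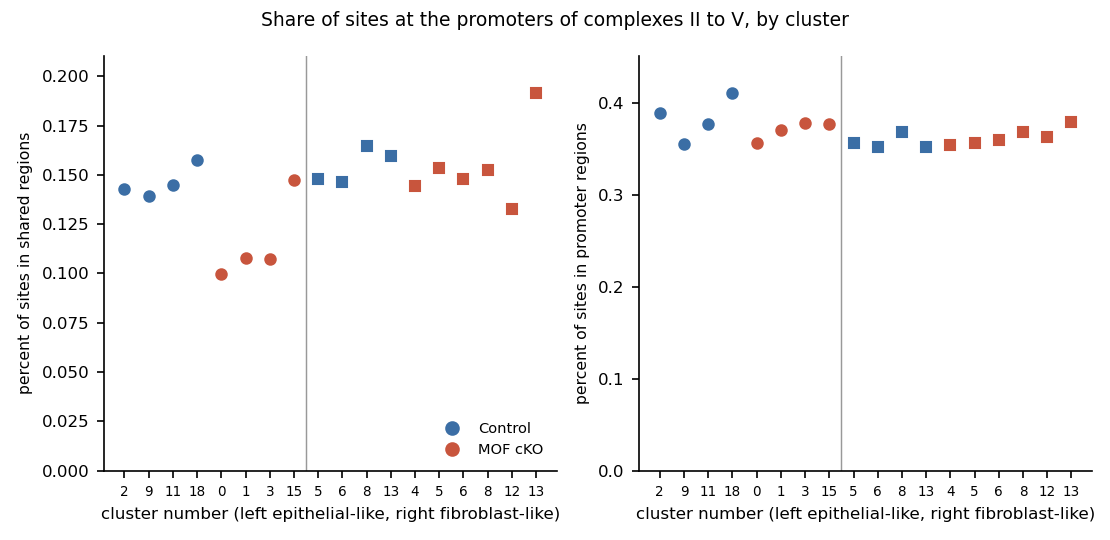
Percent of sites at the 46 regions of complexes II to V for each cluster with at least 50 cells of a library, out of sites in shared regions (left) and out of sites in promoter regions (right). Circles are epithelial-like and squares fibroblast-like clusters, coloured by library. On the left the epithelial-like MOF cKO clusters 0, 1 and 3 (0.0999% to 0.108%) sit below all Control clusters and cluster 15 (0.147%) does not, and on the right the libraries overlap.

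Other cell classes were smaller. Immune-like cells, with 46 Control and 279 MOF cKO cells, gave the members the highest share of sites, at 0.218% and 0.207%. The mural-like cells (17 and 72 cells) had 0.166% and 0.171%, and the endothelial-like cells (10 and 26 cells) 0.178% and 0.170%. Epithelial-like and fibroblast-like Control cells had 0.143% and 0.149%. The share of sites in promoter regions was 49.5% in Control immune-like cells, 48.1% in mural-like, 50.1% in endothelial-like, 41.9% in fibroblast-like and 37.6% in epithelial-like cells. Out of promoter sites, the members took 0.441% in immune-like, 0.346% in mural-like, 0.355% in endothelial-like, 0.356% in fibroblast-like and 0.380% in epithelial-like Control cells.

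The isoforms of complex IV differed between cell classes. Cox4i2 had its highest level in mural-like cells, with 30.5 CPM per kb (16.7 to 51.2, from 28 sites) in Control and 18.8 (12.9 to 26.5, from 65 sites) in MOF cKO. Elsewhere it stood at 3.49 and 4.14 in epithelial-like cells, 7.47 and 5.98 in fibroblast-like cells and 6.55 and 3.33 in immune-like cells. Mural cells are the pericytes and smooth muscle cells around vessels. Their counting intervals lay above those of these 3 classes in both libraries. The wide isoform Cox4i1 was at 41.5 and 49.9 CPM per kb in mural-like cells and 30.7 and 21.6 in epithelial-like cells. Mural-like cells were not its high end, since immune-like cells had 59.5 and 55.1. Over all cell groups it ranged from 21.6 to 79.9. In the 10 and 26 endothelial-like cells Cox4i2 rested on 6 and 3 sites.

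Cox7a1 had another pattern. Immune-like cells stood highest, at 54.4 CPM per kb (40.8 to 71.0) in Control and 38.8 (33.6 to 44.7) in MOF cKO. Mural-like cells had 32.5 (18.6 to 52.7) and 22.9 (16.54 to 30.9), so the Control intervals of the 2 classes overlapped. The other large classes were lower, with fibroblast-like cells at 19.1 and 20.5 and epithelial-like cells at 14.2 and 14.5. A small unnamed cluster led by Actc1, Cav3 and Des (16 and 20 cells), which are muscle genes, had 16.1 and 19.8, within the counting error of the fibroblast-like value. The marker list this cluster matched best was that of fibroblasts, with 4 of 10 up (Col1a2, Col3a1, Twist2 and Fbn1). Its values are thus not a reading of muscle cells alone. The wide form Cox7a2 ranged from 28.6 to 72.5 CPM per kb over all classes.

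Cox6b2, known as the testis isoform, was compared with its wide counterpart. It was at 42.7 and 32.6 CPM per kb in epithelial-like cells, above Cox6b1 at 22.8 and 15.8. Fibroblast-like cells gave 42.1 and 36.4 for Cox6b2 and mural-like cells 68.5 and 43.2. In other groups Cox6b2 was not the higher of the pair. Immune-like cells had 32.7 and 19.3 for Cox6b2 and 33.5 and 31.2 for Cox6b1, and the MOF cKO intervals (15.5 to 23.8 and 26.2 to 37.0) did not overlap. Endothelial-like cells had 31.0 and 15.9 against 32.9 and 28.4, with overlapping intervals. Accessibility of a promoter region does not measure transcription of the gene. Cox6b2 was lower in fibroblast-like MOF cKO cells (-0.21, -0.35 to -0.08), 1 of the 4 members with an interval below 0 there. Its interval also lay below 0 in immune-like (-0.76, -1.37 to -0.11) and mural-like cells (-0.67, -1.29 to -0.01), beside a change of -0.39 in epithelial-like cells. In the small clusters led by Actc1 and by Dct it was higher, at 0.37 and 0.38, with intervals that include 0.

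**Figure D4:**
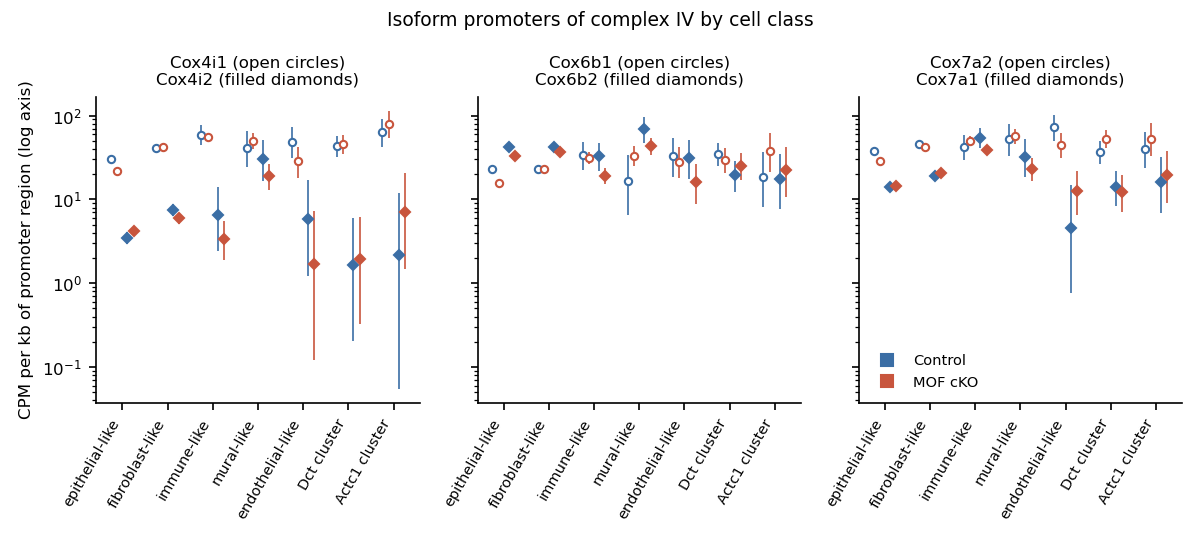
Promoter level in CPM per kb (log axis) of 3 pairs of complex IV isoforms in 7 cell groups, for Control and MOF cKO, with exact Poisson 95% intervals. The restricted Cox4i2 is highest in mural-like cells (30.5 and 18.8) and Cox7a1 in immune-like cells (54.4 and 38.8), while Cox6b2 lies above Cox6b1 in epithelial-like cells (42.7 against 22.8 in Control).

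The members without a promoter region were Cox6a2, Cox7b2, Cox8b and Cox8c, all tissue-restricted isoforms, and a second record of Atp5o. Cox6a2 and Cox8b are the heart and skeletal muscle forms, and Cox7b2 and Cox8c are known from testis. The nearest peak to the Cox6a2 start site was 1063 bp away in Control and 1016 bp in MOF cKO, and for Cox7b2 it was 1996 and 1994 bp away. The Cox8b start site was 2531 bp from a peak in both libraries, and that of Cox8c 9731 and 9858 bp. The second Atp5o record was 4208 and 4203 bp from a peak. The lack of a called peak does not show that a promoter is closed in every cell. Their wide counterparts Cox6a1, Cox7b and Cox8a had epithelial changes of -0.48 (-0.58 to -0.39), -0.64 and -0.47 (-0.55 to -0.39).

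The size of the drop depended on how the libraries were scaled. Another total adds the same amount to the log2 change of every promoter, so the gap of 0.06 between the members and all promoters is fixed by construction here. With all sites in the own peaks of each library as the total, the median was -0.61 for the members and -0.56 for all promoters. With distal sites as the total it was -0.71 and -0.65, with median-of-ratios factors -0.41 and -0.35, and per cell -0.38 and -0.33. The count of members 1.5-fold or more lower moved with that of all promoters. It was 25 of 44 (56.8%, against 44.3% of all promoters) with own-peak sites and 36 (81.8% against 61.4%) with distal sites. It was 3 (6.82% against 13.1%) with median-of-ratios factors and 2 (4.55% against 10.9%) per cell, beside 7 (15.9% against 18.5%) with shared sites. The members' share thus lay above that of all promoters under 2 scalings and below it under 3. The fibroblast-like median lay between -0.04 and 0.02 except per cell, where it was -0.27, with -0.32 for all promoters.

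**Figure D5:**
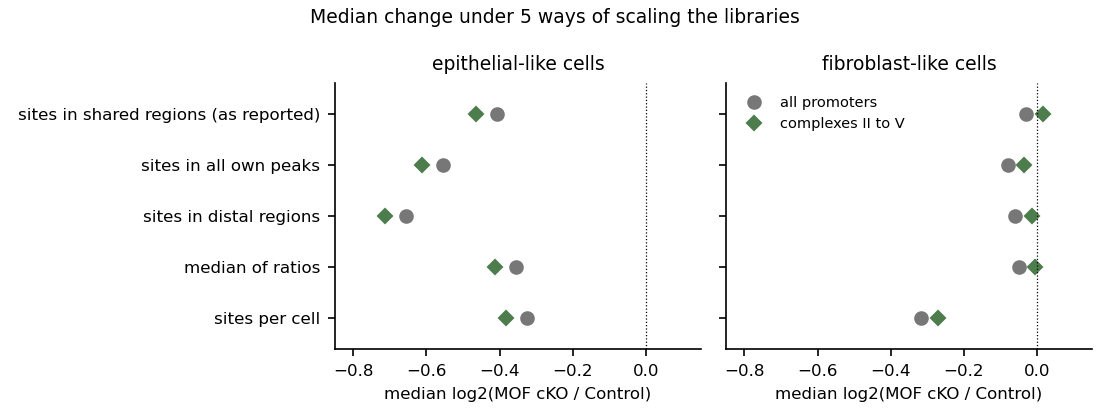
Median log2(MOF cKO / Control) of all promoters (grey circles) and of complexes II to V (green diamonds) under 5 ways of scaling the libraries, in epithelial-like and fibroblast-like cells. On the left both medians move between -0.33 and -0.71, and the gap of 0.06 between them is the same in each scaling by construction.

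Promoters were then split by motif matches. The 11 members with an NRF1 match had a median epithelial change of -0.52 and the 21 without -0.44, and all promoters gave -0.46 and -0.40. For ETS the values were -0.52 and -0.43 in members and -0.45 and -0.40 in all promoters. Sdhd, Uqcr11, Cox6a1, Atp5h, Atp5k and Atp5l held both an NRF1 and an ETS match, so these splits of the members are not separate observations. For CCAAT they were -0.48 and -0.44 in members and -0.43 and -0.40 in all promoters. SP1 ran the other way in members, with -0.43 for matched and -0.47 for unmatched promoters, against -0.42 and -0.38 in all promoters. YY1 and TATAAA were each matched by 1 member. Sdha, with the most separate NRF1 matches shown above, had the smallest change of complex II, but its region also covers the start site of Ccdc127. Whether motif matches bear on the change was not tested.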

How the data were processed

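The authors ran Cell Ranger ATAC (cellranger-atac 2.0.0 per the file headers) on mm10, each library on its own, and deposited raw counts of cut sites per peak and barcode, with no normalization. Even numbers made up 88.8% of the Control and 91.6% of the MOF cKO values, so 2 sites were taken as 1 fragment for every interval.

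The tools were leidenalg 0.10.2, python-igraph 0.11.9, scikit-learn 1.9.0, matplotlib 3.10.9, scipy 1.17.1, pandas 2.3.3 and numpy 2.4.6 under Python 3.11.15. Peaks of both libraries were merged, and the 214119 regions with a peak of each library (overlap of 1 bp or more) were kept. Promoter regions lay within 500 bp of a start site of a protein-coding transcript in GENCODE vM21 (18975 regions). A gene with several had their sum. Barcodes with at least 1000 sites were clustered by latent semantic indexing (29 singular vectors, 20 neighbours, Leiden) without aligning the libraries. A class name needed 3 or more of its markers, and at least 50% of those detected, to be 2-fold above other clusters with a pseudocount of 5 CPM. Clusters with a median doublet score above 0.5 (130 Control and 34 MOF cKO cells) were left out. So was cluster 7 (325 Control and 5 MOF cKO cells), which had 9 of 10 epithelial markers up but a median of 2604 sites and no epithelial marker among its leading genes. The deeper Control clusters 2, 9, 11 and 18 had none there either and were kept, so depth alone set cluster 7 apart from them. Adding it to the epithelial-like class gave a member median of -0.47. These naming limits were set after the clusters were seen.

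The change of a promoter is the log2 ratio of its CPM, MOF cKO over Control, given for promoters with at least 20 sites over both libraries, with exact conditional binomial intervals. Levels have exact Poisson intervals. The calculation was run on simulated data drawn from the same counting model as the intervals. That checks the arithmetic, and it cannot show whether the intervals cover the spread between cells or embryos. No test was possible with 1 library per genotype.

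The members, lists, markers and alternatives were chosen with earlier results of these data known. Named genes were all of complex II, the 3 lowest and 2 highest changes of each other complex among genes with at least 500 epithelial-like sites, the examples Uqcrq, Uqcrc1, Sdha and Sdhb of the study, isoform pairs, c-subunit genes and members without a region. Any other named member was chosen after its values were seen. The further lists were complex I subunits (Nduf symbols other than Ndufaf), assembly factors and Cycs. Promoter sequences came from RefSeq, first entry per gene.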

Additional observations from a re-analysis of the deposited data

Results flagged for a closer look

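Opposite signs of the median change between the 2 large cell classes were seen for complex II (-0.56 for epithelial-like and 0.08 for fibroblast-like cells), complex III (-0.51 and 0.03), complex IV (-0.43 and 0.02) and the members of complexes II to V together (-0.47 and 0.02). All promoters had medians of -0.41 and -0.03. The difference between the classes was not tested, since each genotype has 1 library. These signs depended on the scaling of the libraries, which shifts all promoters alike. In fibroblast-like cells the members together were at -0.04 with own-peak, -0.01 with distal and -0.0057 with median-of-ratios scaling and at -0.27 per cell. Complex IV was below 0 in the same 4 scalings (-0.03, -0.01, -0.0041 and -0.27). Complex III was below 0 with own-peak (-0.03) and distal (-0.0045) scaling and per cell (-0.26), and complex II per cell (-0.21). Without a change of scaling, complex II was also below 0 with regions serving 1 gene (-0.12, from Sdhb alone).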

How the results depend on the processing

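No paired analysis was possible because each genotype has 1 library. Relative to all promoters, the epithelial-like median of the members ranged from -0.09 to -0.03 over the alternatives and that of complex II from -0.23 to -0.05, all negative. Library totals cannot move these values. Counting each cell and region once took complex II from -0.15 to -0.05 (-0.054) and complex III from -0.10 to -0.02, above complexes IV and V (both -0.03). Thinning put complex III (-0.17) below II (-0.16) and took IV from -0.02 to -0.08. Regions serving 1 gene gave V -0.08 (against -0.03). In fibroblast-like cells complex II moved from 0.11 to -0.09 (-0.0889) with regions serving 1 gene, where Sdhb is its 1 remaining gene. Members 1.5-fold or more lower in epithelial-like cells numbered 25 (56.8%, against 44.3% of all promoters) when scaled to own-peak sites, 25 (56.8% against 43.5%) with own called peaks, 36 (81.8% against 61.4%) with distal sites, 3 (6.82% against 13.1%) with median-of-ratios factors, 3 (6.82% against 10.4%) with each cell and region counted once and 2 (4.55% against 10.9%) per cell, beside 7 (15.9% against 18.5%) as reported. In fibroblast-like cells the count was 1 per cell (2.27% against 7.94%) and 0 otherwise. Members with every MOF cKO cluster below every Control cluster were 38 of 44 (86.4%, against 56.5% of all promoters) without the shallow cluster 15, beside 21 (47.7% against 22.7%). With cells thinned to 5000 sites (14 of 1245 Control and 40 of 2596 MOF cKO epithelial-like cells and 38 of 660 Control fibroblast-like cells were too shallow), the percent of sites at Control epithelial-like promoters was 0.0127 for complex II (0.0132 unthinned), 0.0347 for III (0.0338), 0.0352 for IV (0.0344) and 0.0595 for V (0.0617). In MOF cKO it was 0.00868 for complex II (0.00927) and 0.0463 for V (0.0456), and in Control fibroblast-like cells 0.0133 for complex II (0.0141) and 0.0300 for III (0.0308). The cause of these shifts was not tested. Levels in mural-like and endothelial-like cells rest on few cells, and the counting intervals do not cover variation between embryos.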

Other observations

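Apart from the named classes, 2 small clusters held cells of both libraries. Neither had enough markers up for a name, and the cluster led by Actc1 matched the fibroblast list best (4 of 10 up). In the cluster led by Actc1, Cav3 and Des (16 Control and 20 MOF cKO cells) the promoters of complexes II to V took 0.193% and 0.175% of the sites in shared regions, and in a cluster led by Gjc3 and Dct (32 and 55 cells) they took 0.158% and 0.156%. Cox8a is the wide form of the subunit whose muscle form Cox8b had no promoter region. In the Actc1 cluster it was at 82.5 CPM per kb (57.6 to 114) in Control and 55.6 (34.9 to 84.2) in MOF cKO cells, from 71 and 44 sites. In the Dct cluster it was at 51.7 (39.3 to 66.9) and 54.1 (41.7 to 68.9). These counting intervals overlap.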
